A study of Mus musculus with 29 samples.

Results

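The proteasome genes described here are subunit, activator and assembly chaperone genes of the proteasome, read by 3' tag sequencing in mouse splenic CD4 T cells. They were chosen by symbol: the families Psma, Psmb, Psmc, Psmd, Psme and Psmg followed by a number, without the immunoproteasome genes Psmb8, Psmb9 and Psmb10, and kept where they reached 1 count per 1000000 counted reads (CPM) in at least 3 of the cell-type libraries. Of 44 matching symbols, 42 were kept, out of 19464 genes above 0 in those libraries. The other two, Psma8 and Psmb11, which encode the testis and thymus forms of ring subunits, were listed at 0 in all 9 cell-type libraries. No member was lost to a further filter in any test.

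The proteasome is the protease of the cytosol and nucleus that takes apart proteins tagged with ubiquitin. Its core, the 20S particle, is a barrel of outer alpha rings that gate the entrance and inner beta rings that hold the proteolytic sites. The 19S cap on its end has a ring of ATPases that unfold the substrate and non-ATPase subunits that bind and remove ubiquitin, while Psme proteins are alternative activators that open the core. Dedicated chaperones assemble the core (Psmg genes) and the cap (Psmd5, Psmd9 and Psmd10). In T cells the proteasome degrades cell cycle regulators and signalling inhibitors and supplies peptides for MHC class I molecules. The 42 members comprised 7 alpha ring, 7 beta ring, 6 ATPase and 11 non-ATPase genes, 3 cap chaperones, 4 activators and 4 core chaperones.

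All cells came from C57BL/6 spleens and started as naive CD4 T cells. One experiment set cell types side by side, with 3 libraries per group. Its Treg cells spent 5 days in IL-2 (15 ng/ml) plus human TGF-beta (hTGFb, 10 ng/ml), its Th0 cells spent 5 days in IL-2 (15 ng/ml) without TGF-beta, and its naive cells were not cultured. The other, here the Smad experiment, used Treg cultures in the same medium, with 2 libraries per group: a CRISPR guide against Smad2 (sgSmad2), one against Smad3 (sgSmad3), guides against both (sgSmad2/3), and no guide named in the labels (control). Smad2 and Smad3 are the transcription factors that the TGF-beta receptor activates, so the design asks which of the differences made by TGF-beta pass through them. Of the 29 samples in the series these 17 libraries were used.

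The cell-type libraries held 797612 to 1551478 reads and the Smad libraries 1294583 to 1602297. Foxp3, which defines Treg cells, was at 138, 191 and 207 CPM in Treg, at 13.8, 8.88 and 8.57 CPM in Th0 and at 82.7, 91.7 and 88.8 CPM in naive libraries. The other Treg markers Ikzf2, Ctla4 and Il2ra differed between Treg and Th0 by log2 0.63, 0.89 and 0.02, and none passed the test used below. In Treg against naive cells Ikzf2 was lower (log2 -1.51), Il2ra was higher (log2 4.13) and Ctla4 did not pass (log2 -0.46). Whether the naive libraries held Treg cells was not tested. The naive libraries also held tags of other blood cells. Red cell markers (3 genes) summed to 0 to 4.51 CPM in Treg, 4.90 to 5.55 CPM in Th0 and 362 to 777 CPM in naive libraries. B cell markers (5 genes) summed to 0 to 4.31 CPM in Treg, 2.12 to 7.77 CPM in Th0 and 12.9 to 114 CPM in naive libraries. Myeloid markers (5 genes) summed to 0 to 0.98 CPM in Treg, 0 to 1.06 CPM in Th0 and 10.5 to 81.8 CPM in naive libraries. CD8 and NK cell markers (5 genes) summed to 21.5 to 50.6 CPM in Treg, 18.4 to 48.7 CPM in Th0 and 38.6 to 47.1 CPM in naive libraries. These sums hide members that went different ways. In Treg against naive cells Cd8b1, Klrb1c and Ncr1 were lower (log2 -1.34, -1.86 and -3.41). Cd8a and Nkg7 did not pass (log2 0.51 and 0.67). In Th0 Klrb1c and Ncr1 were lower (log2 -1.51 and -2.68) and the others did not pass. The part of these other cells in the differences from naive cells was not tested. In bulk libraries fewer cells of a type and less RNA per cell cannot be told apart, and no label ties the replicates to different mice or cultures, so the p-values here measure only how far these libraries scatter, which may be technical.

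Proteasome RNA was higher in both cultured cell types than in naive cells, in nearly every class of member. Summed over the 42 members, the tags amounted to 6276, 6314 and 6196 CPM in the Treg libraries, 6885, 6784 and 6733 CPM in the Th0 libraries and 3276, 3671 and 3486 CPM in the naive libraries. No cultured library fell near the naive range, and the Treg sum was 1.80 times and the Th0 sum 1.96 times the naive sum. The ratio to naive was largest for the alpha ring (2.06 in Treg, 2.38 in Th0) and smallest for the activators (1.21 in Treg, 1.36 in Th0).

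**Figure D1:**
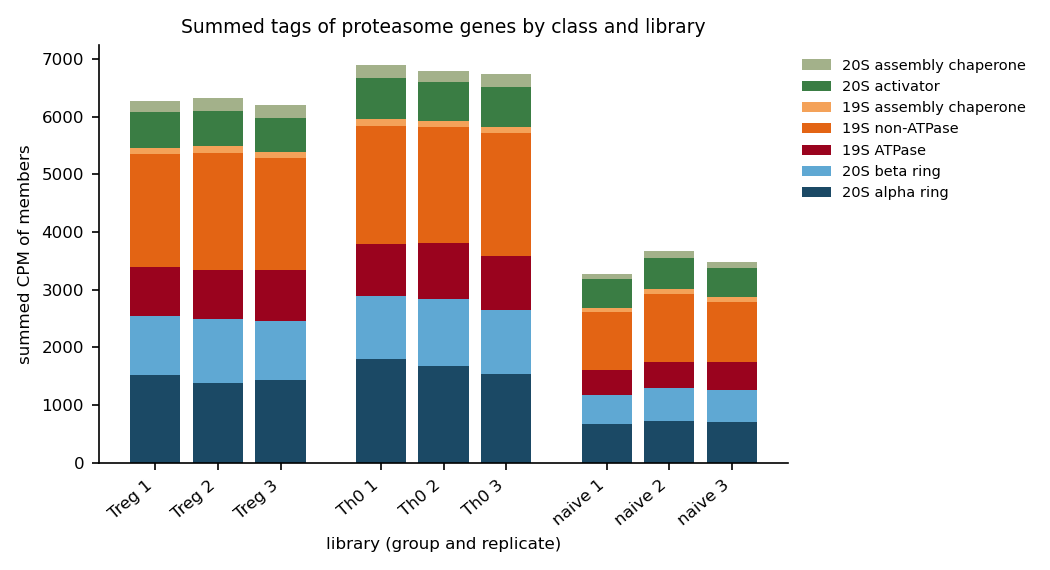
Summed CPM of the 42 members in each cell-type library, stacked by class, with Treg, Th0 and naive libraries from left to right. The Treg bars reach 6196 to 6314 CPM and the Th0 bars 6733 to 6885 CPM, against 3276 to 3671 CPM for the naive bars.

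In Treg against naive cells 35 of 42 members rose and 0 fell (limma on log2(CPM + 1), Benjamini-Hochberg adjustment over all 14165 genes tested, threshold 0.05), where 23.3% of all genes rose and 16.5% fell. The median log2 change of the members was 0.86, against 0.08 for all genes tested. In Th0 against naive cells 37 of 42 rose and 0 fell, where 24.3% of all genes rose and 17.6% fell, with a median of 0.96 against 0.08. The 3 Treg libraries all lay above the 3 naive libraries for 35 members (27.0% of all genes), and the Th0 libraries did so for 38 (26.7% of all genes). These comparisons share the naive libraries.

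**Figure D2:**
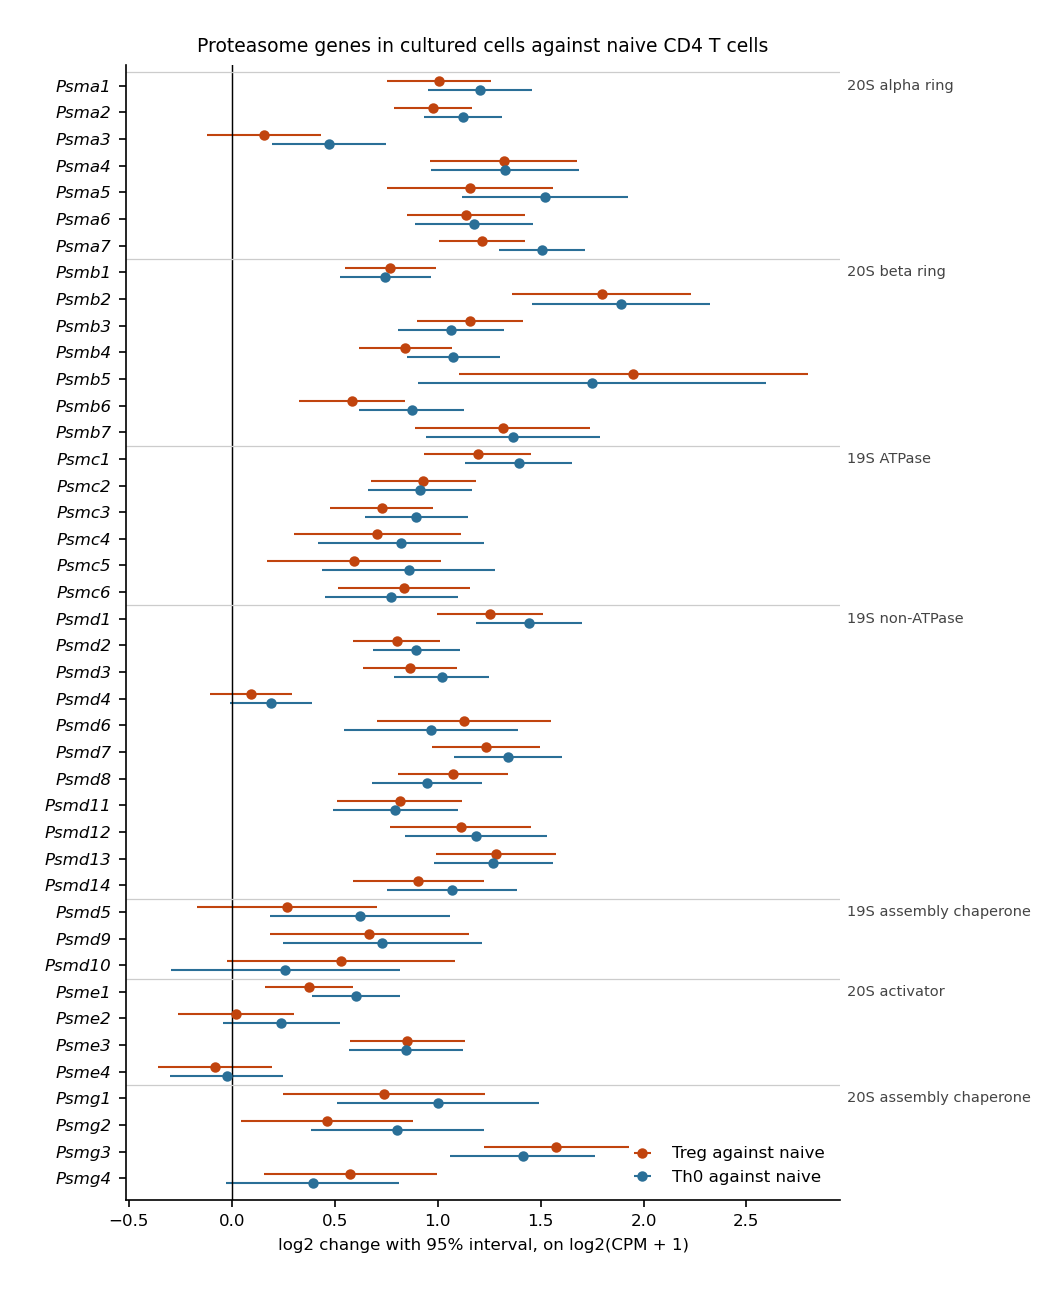
Log2 change of each member in Treg (red) and Th0 (blue) against naive cells, with 95% intervals, grouped by class. Psmb5, Psmb2 and Psmg3 lie highest in Treg (1.95, 1.80 and 1.57), and Psme4, Psme2, Psmd4 and Psma3 nearest to 0 (-0.08, 0.02, 0.09 and 0.16).

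The alpha ring forms the gate through which substrates enter. Of its 7 genes, 6 rose in Treg (all but Psma3) and 7 in Th0, with median log2 changes of 1.14 and 1.21. Psma7 (chromosome 2, 180036367 to 180042464) was at 583, 471 and 505 CPM in Treg, 667, 655 and 586 CPM in Th0 and 202, 223 and 245 CPM in naive libraries. It rose 2.32-fold in Treg (log2 1.21, SE 0.10, limma adjusted p = 8.56e-09) and 2.84-fold in Th0 (log2 1.51, limma adjusted p = 3.5e-10), with no overlap between cultured and naive libraries. Psma4 had 136, 106 and 105 CPM in Treg, 140, 111 and 98.0 CPM in Th0 and 36.4, 54.5 and 46.8 CPM in naive libraries. It rose in both cultures, by log2 1.32 in Treg and 1.33 in Th0 (SE 0.17). Psma5 had 45.2, 58.0 and 47.0 CPM in Treg, 68.9, 67.7 and 57.6 CPM in Th0 and 25.1, 23.5 and 17.5 CPM in naive libraries, with log2 changes of 1.16 and 1.52 (SE 0.19).

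Psma3 was the alpha ring gene that moved least. It was at 93.7, 79.9 and 86.2 CPM in Treg, 115, 105 and 103 CPM in Th0 and 71.5, 86.7 and 74.8 CPM in naive libraries. The Treg and naive libraries overlapped (log2 0.16, 95% interval -0.12 to 0.43, limma adjusted p = 0.38), whereas Th0 rose by log2 0.47 (limma adjusted p = 0.0071). That Th0 call was lost with quantile scaling (limma adjusted p = 0.073) and with DESeq2 (adjusted p = 0.12). Psma1, Psma2 and Psma6 rose in both cultures by log2 0.98 to 1.21.

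All 7 beta ring genes rose in both cultures, with medians of 1.16 in Treg and 1.08 in Th0. Psmb5 (chromosome 14, 54614120 to 54617995) encodes the chymotrypsin-like catalytic subunit, the target of bortezomib. It was at 24.8, 17.4 and 17.6 CPM in Treg, 11.7, 18.9 and 22.0 CPM in Th0 and 2.51, 8.67 and 3.51 CPM in naive libraries. The naive values are 2, 7 and 3 reads, so the log2 changes of 1.95 in Treg and 1.75 in Th0 have a wide error (SE 0.40, limma adjusted p = 0.00065 and 0.0017). Psmb6, the caspase-like subunit, had 108, 128 and 107 CPM in Treg, 143, 131 and 145 CPM in Th0 and 74.0, 76.8 and 76.0 CPM in naive libraries. Its rise was the smallest of the beta ring in Treg, at log2 0.58 (limma adjusted p = 0.00072), and was log2 0.87 in Th0. Psmb7, the trypsin-like subunit, was at 111, 111 and 114 CPM in Treg, 108, 115 and 125 CPM in Th0 and 35.1, 34.7 and 71.3 CPM in naive libraries. Naive replicate 3 stood above the other naive libraries, and all cultured libraries lay above it (log2 1.31 and 1.37, SE 0.20).

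Psmb2, a beta ring subunit without a catalytic site, came next to Psmb5 in Treg and had the largest change of the 42 in Th0. It had 59.2, 49.0 and 63.7 CPM in Treg, 53.0, 72.1 and 58.8 CPM in Th0 and 15.0, 19.8 and 12.9 CPM in naive libraries. The rise was 3.48-fold in Treg (log2 1.80, SE 0.21, limma adjusted p = 8.96e-07) and 3.71-fold in Th0 (log2 1.89, limma adjusted p = 4.24e-07). The structural subunits Psmb1, Psmb3 and Psmb4 rose by log2 0.77, 1.16 and 0.84 in Treg and by 0.75, 1.06 and 1.08 in Th0.

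The 6 ATPases of the cap (Psmc1 to Psmc6), which thread the unfolded protein into the core, rose in both cultures, with medians of 0.78 in Treg and 0.88 in Th0. Psmc1 was at 318, 302 and 318 CPM in Treg, 325, 381 and 372 CPM in Th0 and 107, 154 and 153 CPM in naive libraries. Its log2 change of 1.20 in Treg (SE 0.12, limma adjusted p = 2.2e-07) and 1.39 in Th0 was the largest of the 6 genes in each culture. The smallest in Treg was Psmc5 (log2 0.59, limma adjusted p = 0.024). Its call in Treg was lost without naive replicate 2 (limma adjusted p = 0.11), without Treg replicate 2 (0.058) or without Treg replicate 3 (0.11). It was also lost with TMM scaling (limma adjusted p = 0.052), quantile scaling (0.13), edgeR (0.061) and DESeq2 (0.19), and that of Psmc4 was lost with DESeq2 (adjusted p = 0.069).

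Of the 11 non-ATPase cap genes 10 rose in each culture, with medians of 1.07 in Treg and 1.02 in Th0. Psmd1, the scaffold at the base of the cap, was at 153, 146 and 161 CPM in Treg, 183, 163 and 179 CPM in Th0 and 61.4, 73.1 and 57.3 CPM in naive libraries (log2 1.25 and 1.44, SE 0.12). Psmd13, a lid subunit, was at 206, 254 and 240 CPM in Treg, 238, 202 and 254 CPM in Th0 and 89.0, 119 and 80.7 CPM in naive libraries (log2 1.28 and 1.27, SE 0.14). Psmd7, the lid partner of the deubiquitinase Psmd14, was at 207, 213 and 217 CPM in Treg, 260, 199 and 232 CPM in Th0 and 77.7, 88.0 and 105 CPM in naive libraries (log2 1.23 and 1.34, SE 0.13). Each of these sets of cultured libraries lay wholly above the naive ones, and Psmd14 itself rose by log2 0.91 in Treg and 1.07 in Th0.

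The exception was Psmd4, a ubiquitin receptor of the cap. It was at 267, 282 and 245 CPM in Treg, 267, 284 and 299 CPM in Th0 and 241, 260 and 243 CPM in naive libraries. The log2 change was 0.09 in Treg (95% interval -0.11 to 0.29, limma adjusted p = 0.48) and 0.19 in Th0 (interval -0.01 to 0.39, limma adjusted p = 0.12). Its Treg libraries overlapped with the naive ones and its Th0 libraries lay just above them. Both intervals lie inside a 1.5-fold change, so the size of rise seen for Psmd1 or Psmd13 lies outside them.

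Among the 3 chaperones that assemble the cap, Psmd9 rose in Treg and Psmd5 and Psmd9 rose in Th0. Psmd9 rose by log2 0.67 in Treg (limma adjusted p = 0.027) and 0.73 in Th0 (limma adjusted p = 0.015). Psmd5 had 33.4, 56.7 and 38.2 CPM in Treg, 62.5, 45.5 and 53.9 CPM in Th0 and 31.3, 38.4 and 33.9 CPM in naive libraries (log2 0.27 in Treg, limma adjusted p = 0.34, and log2 0.62 in Th0, limma adjusted p = 0.022). Psmd10, also known as gankyrin, had 46.3, 33.5 and 27.4 CPM in Treg, 23.3, 32.2 and 31.8 CPM in Th0 and 16.3, 31 and 26.9 CPM in naive libraries, and its groups overlapped (log2 0.53 in Treg, limma adjusted p = 0.13, and 0.26 in Th0, limma adjusted p = 0.47). The calls of this class rested on single libraries. Psmd9 in Treg was lost without naive replicate 2 (limma adjusted p = 0.081), Treg replicate 2 (0.076) or Treg replicate 3 (0.063), and in Th0 without naive replicate 2 (0.051) or Th0 replicate 1 (0.066). Psmd5 in Th0 was lost without naive replicate 1 (0.070), naive replicate 3 (0.062), Th0 replicate 1 (0.10) or Th0 replicate 3 (0.056). Other methods also ended them. Psmd9 in Treg was lost with TMM scaling (0.0503), quantile scaling (0.091), edgeR (0.072) and DESeq2 (0.21), and in Th0 with edgeR (0.057) and DESeq2 (0.16). Psmd5 in Th0 was lost with quantile scaling (0.13), without the intensity trend (0.063) and with DESeq2 (0.14).

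The Psmg genes encode the chaperones on which the alpha ring is built, with Psmg1 paired to Psmg2 and Psmg3 paired to Psmg4. Psmg3 (chromosome 5, 139823613 to 139826894) was at 84.0, 78.6 and 86.2 CPM in Treg, 71.0, 62.1 and 91.9 CPM in Th0 and 26.3, 26.0 and 29.2 CPM in naive libraries. It rose 2.98-fold in Treg (log2 1.57, SE 0.17, limma adjusted p = 3.16e-07) and 2.66-fold in Th0 (log2 1.41, limma adjusted p = 1.21e-06). Its partner Psmg4 had 43.1, 57.4 and 61.7 CPM in Treg, 46.6, 47.7 and 46.5 CPM in Th0 and 32.6, 47.1 and 29.2 CPM in naive libraries. Psmg4 overlapped with naive cells in both cultures and passed the test in Treg alone (log2 0.57, limma adjusted p = 0.028, against log2 0.39, limma adjusted p = 0.13 in Th0). Psmg1 had 28.0, 37.4 and 27.4 CPM in Treg, 33.9, 36.6 and 40.4 CPM in Th0 and 13.8, 19.8 and 21.0 CPM in naive libraries, and rose in both (log2 0.74 and 1.0, SE 0.23). Psmg2 had 40.9, 36.7 and 38.2 CPM in Treg, 59.3, 39.9 and 50.2 CPM in Th0 and 25.1, 26.0 and 32.7 CPM in naive libraries, and passed in Th0 (log2 0.80, limma adjusted p = 0.0030) but not in Treg (log2 0.46, limma adjusted p = 0.075).

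Single libraries decided several of these chaperone calls. Psmg4 in Treg was lost without naive replicate 1 (limma adjusted p = 0.084), naive replicate 3 (0.12), Treg replicate 2 (0.099) or Treg replicate 3 (0.12), and Psmg1 in Treg without naive replicate 1 (0.072) or Treg replicate 2 (0.094). Psmg4 in Treg was also lost with TMM scaling (0.060), quantile scaling (0.15), without the intensity trend (0.074), with only Treg and naive libraries fitted (0.061) and with DESeq2 (0.17), and Psmg1 in Treg with quantile scaling (0.072) and DESeq2 (0.13). Conversely, Psmg2 passed in Treg without naive replicate 3 (0.042) and Psmg4 passed in Th0 without naive replicate 2 (0.028).

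Of the 4 activators Psme1 and Psme3 rose in each culture, with medians for the class of 0.20 in Treg and 0.42 in Th0. Psme3, a nuclear activator that works without ubiquitin, had 103, 91.5 and 90.1 CPM in Treg, 94.3, 89.9 and 99.2 CPM in Th0 and 52.7, 53.3 and 50.3 CPM in naive libraries. It rose by log2 0.85 in both cultures (SE 0.13, limma adjusted p = 3.4e-05 in Treg). Psme1 (chromosome 14, 55578494 to 55581527), a subunit of the activator that interferon-gamma induces, was at 314, 307 and 286 CPM in Treg, 370, 347 and 347 CPM in Th0 and 236, 265 and 202 CPM in naive libraries. Its rise was smaller, log2 0.37 in Treg (limma adjusted p = 0.0062) and 0.60 in Th0, without overlap with the naive libraries. The Treg call of Psme1 was lost without the intensity trend (limma adjusted p = 0.091) and with DESeq2 (adjusted p = 0.067).

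Psme2 (chromosome 14, 55587440 to 55591101), a gene close to Psme1 and its partner in the ring, was at 114, 123 and 136 CPM in Treg, 153, 158 and 126 CPM in Th0 and 105, 120 and 145 CPM in naive libraries. Treg and naive levels differed by log2 0.02 (95% interval -0.26 to 0.30, limma adjusted p = 0.93), and Th0 and naive levels by 0.24 (interval -0.04 to 0.52, limma adjusted p = 0.17). Psme2b, a near-identical copy on chromosome 11 that is no member, may take reads of Psme2, so the split between them is uncertain. With both summed, the change was -0.08 in Treg (limma adjusted p = 0.55) and 0.09 in Th0 (limma adjusted p = 0.48). Psme4, which encodes a large nuclear activator, had 99.1, 96.7 and 92.1 CPM in Treg, 109, 84.3 and 108 CPM in Th0 and 107, 95.4 and 103 CPM in naive libraries. It was the lowest of the 42 in both cultures, at log2 -0.08 in Treg (interval -0.36 to 0.19) and -0.03 in Th0 (interval -0.30 to 0.25), and did not pass the test.

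**Figure D3:**
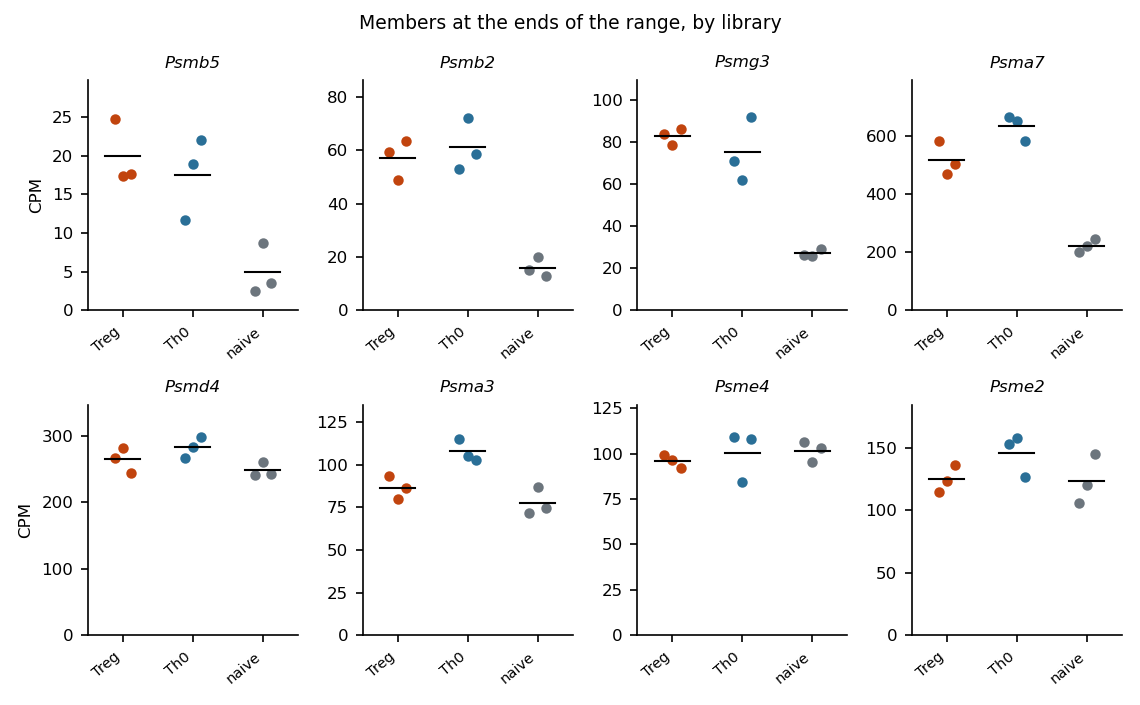
CPM by library for 8 members at the ends of the range, with Treg, Th0 and naive libraries from left to right and the group mean as a bar. Psmb5, Psmb2, Psmg3 and Psma7 separate cultured from naive libraries, whereas Psmd4, Psma3, Psme4 and Psme2 have Treg libraries within or near the naive range.

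The promoters of members at both ends of this range, and of the neighbours Psme1 and Psme2, are shown so that genes that rose and genes that did not can be read side by side. RefSeq tables on build GRCm38.p6 held a promoter for 35 of the 42 members, Psmb2 not among them. Each line gives the bases from 100 before to 30 after the start of the gene, 5' to 3' on the gene's strand. Capitals mark matches to the motifs named below.
Psmb5, chr14:54617966-54618095, minus strand: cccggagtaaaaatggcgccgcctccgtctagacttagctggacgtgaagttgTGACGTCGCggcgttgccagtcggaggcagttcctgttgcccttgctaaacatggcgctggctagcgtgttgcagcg
Psmg3, chr5:139826865-139826994, minus strand: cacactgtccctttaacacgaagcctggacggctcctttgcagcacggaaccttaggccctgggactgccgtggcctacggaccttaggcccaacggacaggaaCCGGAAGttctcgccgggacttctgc
Psme4, chr11:30771675-30771804, plus strand: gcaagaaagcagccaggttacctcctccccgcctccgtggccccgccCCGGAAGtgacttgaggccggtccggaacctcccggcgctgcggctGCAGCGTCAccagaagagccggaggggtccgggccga
Psme2, chr14:55591072-55591201, minus strand: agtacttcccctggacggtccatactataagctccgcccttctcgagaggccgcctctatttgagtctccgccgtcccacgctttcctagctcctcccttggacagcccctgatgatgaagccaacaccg
Psme1, chr14:55578394-55578523, plus strand: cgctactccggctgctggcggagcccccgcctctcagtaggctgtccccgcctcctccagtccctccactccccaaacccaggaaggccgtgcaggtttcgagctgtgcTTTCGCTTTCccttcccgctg

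The motifs were searched on both strands in 300 bases per gene (250 before and 50 after the start), for the 35 members and for all 27025 genes with a promoter on file. The core of the antioxidant response element bound by Nfe2l1 and Nfe2l2, TGACNNNGC, matched in Psmb5 and Psme4 and in 17.1% of members, against 12.5% of all promoters. The Ets site CCGGAAG matched in Psmg3 and Psme4 and in 37.1% of members, against 9.07% of all. The core of the interferon-stimulated response element, GAAA and GAAA with any 2 bases between them, matched in Psme1, read on the other strand just after its start, and in 14.3% of members, against 3.5% of all. CCAAT boxes matched in 34.3% of members and 38.0% of all promoters. The palindrome of nuclear respiratory factor 1 (Nrf1, a different protein from Nfe2l1) is GCGCA followed directly by TGCGC. It matched in 5.71% of members, which are Psma2 and Psmg1 alone, and 0.977% of all. Psme2 held none of the 5 motifs in its window. All promoters include those of genes not expressed in these cells, so how the members compare with other expressed genes was not tested. A match is a run of letters and not a measured binding site.

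Treg and Th0 cells, which differ by TGF-beta in the medium, differed far less. None of the 42 members passed the test between them with limma, where 5.44% of all genes did (2.99% higher and 2.45% lower in Treg). With an unadjusted p under 0.05 there were 5 members and 2225 of all 14165 genes. edgeR on the recovered reads called 1 member, Psma7, lower in Treg (log2 -0.28, adjusted p = 0.036), and DESeq2 called 0. The median log2 change was -0.10, against -0.01 for all genes, and 29 of 42 members had a negative value, as did 51.1% of all genes. The 3 Treg libraries lay wholly below the Th0 libraries for 10 members (11.2% of all genes) and wholly above for 0 (10.0% of all genes).

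All 7 alpha ring genes had a negative value (51.1% of all genes), with a median of -0.20. Psma4 turned positive with TMM scaling (0.01), and both Psma4 and Psma6 did so without Th0 replicate 1 (0.13 and 0.06). Psma7, whose Treg and Th0 libraries did not overlap, differed by log2 -0.29 (95% interval -0.50 to -0.08, limma adjusted p = 0.11). Psma3, also without overlap, differed by -0.32 (interval -0.59 to -0.04, limma adjusted p = 0.23) and Psma5 by -0.37 (interval -0.77 to 0.04, limma adjusted p = 0.38). In the beta ring Psmb4 was at 297, 324 and 289 CPM in Treg and 335, 367 and 369 CPM in Th0 libraries (log2 -0.23, limma adjusted p = 0.29). The catalytic Psmb6, whose values are given above, differed by -0.29 (limma adjusted p = 0.23), while Psmb7 differed by -0.05 (interval -0.48 to 0.37) and Psmb5 by 0.20 (interval -0.64 to 1.05). None of these values passes the adjustment over all genes.

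In the cap Psmc5 had 34.5, 40 and 48.0 CPM in Treg and 48.7, 48.8 and 49.0 CPM in Th0 libraries, a log2 difference of -0.27 with no overlap (limma adjusted p = 0.61). All 11 non-ATPase cap genes had a 95% interval within a 1.5-fold change, their values ranging between -0.19 and 0.16. The same held for all 4 activators, among which Psme1 was at log2 -0.23 (limma adjusted p = 0.27) with no overlap and Psme2 at -0.22 (limma adjusted p = 0.49). Over all members 33 of 42 intervals lay within 1.5-fold. Of the chaperones Psmd5 differed by -0.35, Psmg2 by -0.34, Psmg1 by -0.26 and Psmd10 by 0.27, each with an SE of 0.20 to 0.27, and none of their intervals excluded 1.5-fold.

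**Figure D4:**
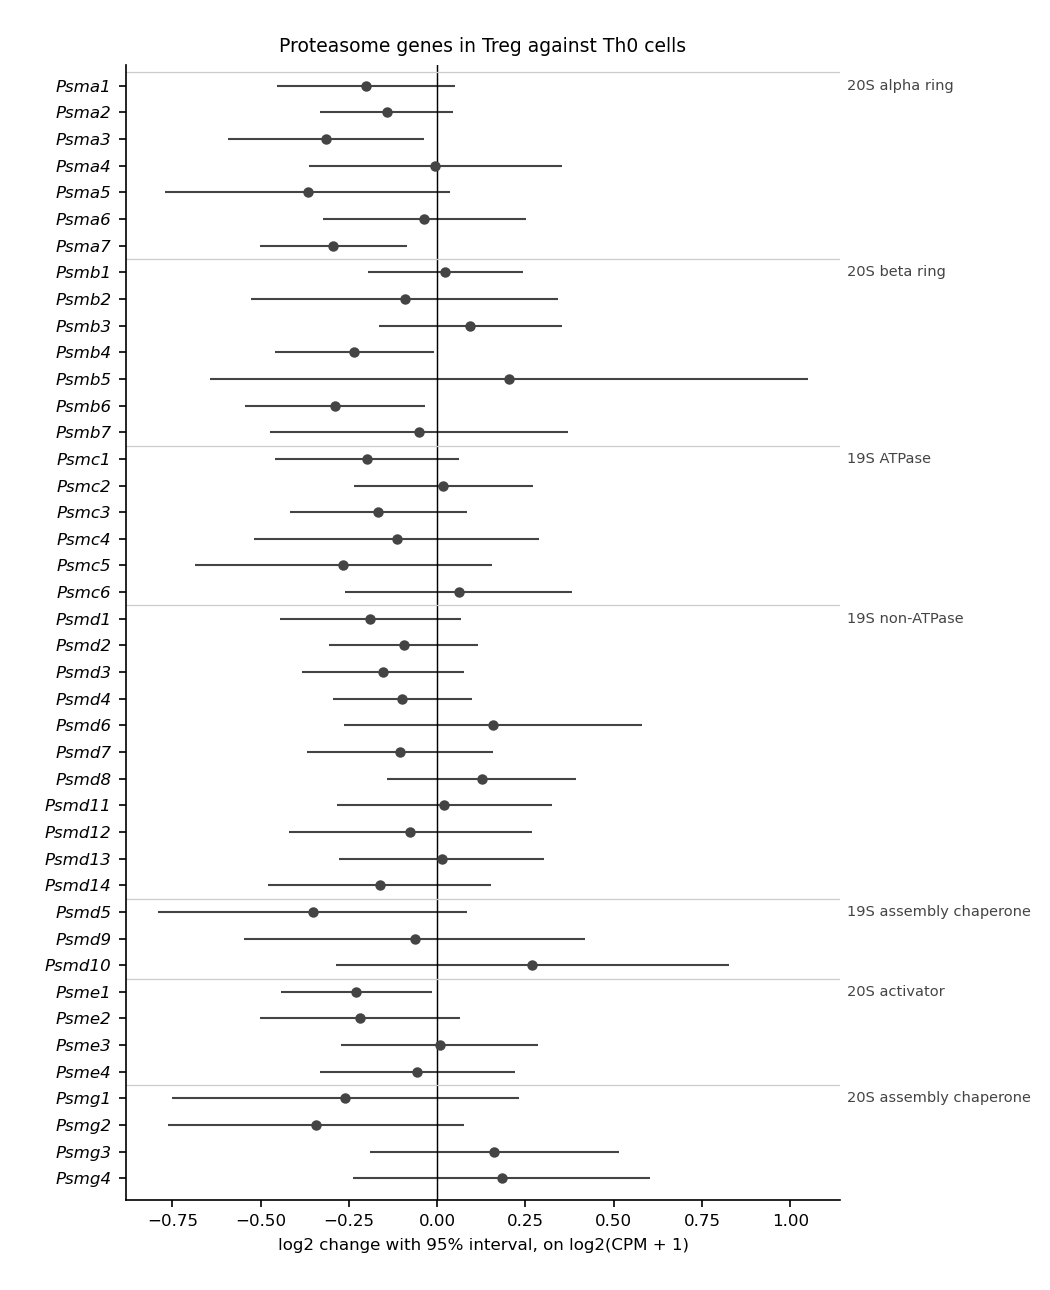
Log2 difference between Treg and Th0 cells for each member with its 95% interval, on log2(CPM + 1), grouped by class. All points lie between -0.37 and 0.27 and most intervals cross 0, and the widest is that of Psmb5.

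Of the immunoproteasome genes, which replace the catalytic beta subunits after interferon, Psmb8 and Psmb9 rose in Treg and Th0 against naive cells and Psmb10 did not pass. Psmb8 was at 420, 414 and 347 CPM in Treg, 470, 404 and 423 CPM in Th0 and 176, 209 and 224 CPM in naive libraries (log2 0.95 and 1.09). Psmb9 was at 656, 507 and 406 CPM in Treg, 640, 502 and 534 CPM in Th0 and 242, 221 and 252 CPM in naive libraries (log2 1.10 and 1.22). None of the 3 passed between Treg and Th0, where 5.44% of all genes did. For Psmb8 and Psmb9 the cultured libraries stood above every naive library.

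Of 11 other proteasome proteins tested, 8 rose in Treg and 7 in Th0 against naive cells, 0 fell, and 0 passed between Treg and Th0. Over all genes, 23.3% rose in Treg and 24.3% in Th0, 16.5% and 17.6% fell, and 5.44% passed between Treg and Th0. Uchl5, a deubiquitinase of the cap, had 87.2, 82.5 and 87.2 CPM in Treg, 79.5, 83.2 and 93.1 CPM in Th0 and 32.6, 19.8 and 31.6 CPM in naive libraries (log2 1.61 and 1.60). Txnl1, a thioredoxin bound to the cap, rose by log2 1.45 in Treg and 1.35 in Th0, Pomp, the maturation factor of the core, by 1.02 and 1.19, and the deubiquitinase Usp14 by 0.98 and 0.93. Ube3c, Zfand5 and Ecpas passed in neither culture.

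Of 11 genes that control proteasome transcription, 3 rose and 1 fell in each culture against naive cells, a share near that of all genes (23.3% rose in Treg and 24.3% in Th0). Nfe2l1, the transcription factor that raises proteasome genes when proteasome activity falls short, had 60.3, 51.6 and 45.1 CPM in Treg, 67.8, 71.0 and 53.9 CPM in Th0 and 35.1, 49.6 and 58.4 CPM in naive libraries, and did not pass (log2 0.15 and 0.44, limma adjusted p = 0.59 and 0.078). Its relative Nfe2l2 did not pass either (log2 -0.04 and 0.25). Mafg, a small Maf protein that pairs with both, rose by log2 1.49 in Treg and 1.38 in Th0, and Keap1, which holds Nfe2l2 back, by 0.40 and 0.70. Nfyb, a subunit of the factor that binds CCAAT, rose by 0.51 and 0.52. Ngly1, which processes the Nfe2l1 protein, fell by 0.59 on the log2 scale in Treg, and Maff, another small Maf, fell by 2.84 in Th0.

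Of 6 ubiquitin and E1 genes, 2 rose and 1 fell in Treg and 3 rose and 1 fell in Th0 against naive cells, where 23.3% of all genes rose in Treg and 24.3% in Th0. The E1 enzymes Uba1 and Uba6, which start every ubiquitin transfer, rose by log2 0.63 and 0.35 in Treg and by 0.60 and 0.54 in Th0.

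Genes of the interferon response, a known inducer of Psme1, Psme2 and the immunoproteasome, differed between Treg and Th0 cells. Of 13 tested, 9 fell in Treg against Th0 and 0 rose, with a median of -2.02, where 2.45% of all genes fell and 2.99% rose. Isg15, a ubiquitin-like protein, was at 14.0, 15.5 and 8.82 CPM in Treg, 130, 129 and 119 CPM in Th0 and 11.3, 4.96 and 17.5 CPM in naive libraries (log2 -3.24 in Treg against Th0, limma adjusted p = 1.7e-06). Irf7, a transcription factor of the interferon response, was at 16.2, 15.5 and 18.6 CPM in Treg and 74.2, 73.2 and 75.9 CPM in Th0 libraries (log2 -2.09). In the same libraries Psme1 and Psme2 differed by log2 -0.23 and -0.22. Psmb8, Psmb9 and Psmb10 differed by -0.14, -0.11 and -0.15, and none of these genes passed. Whether the interferon response has a part in these values was not tested. Of 8 MHC class I pathway genes B2m, the light chain, fell in Treg against Th0 (log2 -0.39, limma adjusted p = 0.0497) and 0 rose. Against naive cells the peptide transporter Tap1 rose in Treg and Th0 by log2 0.38 and 0.52. B2m, H2-K1, H2-D1 and Tapbp fell in Treg. Of all genes 23.3% rose in Treg and 24.3% in Th0 against naive cells, and 16.5% fell in Treg.

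The guide experiment asked whether Smad2 or Smad3 changes these genes in Treg cultures. Values in its table are CPM that the authors rounded to whole numbers. Smad2 RNA was at 12 and 24 in sgSmad2, 25 and 30 in sgSmad3, 13 and 18 in sgSmad2/3 and 37 and 29 in control libraries (log2 -0.91 in sgSmad2 and -1.05 in sgSmad2/3, limma adjusted p = 1.0 and 0.21). Smad3 RNA was at 44 and 56 in sgSmad2, 26 and 25 in sgSmad3, 41 and 37 in sgSmad2/3 and 30 and 34 in control libraries. The Smad3 level under the double guide was thus not below the control. A guide makes a small change in the gene that need not remove its RNA, and where the guides cut is not given in the sources used here, so 3' tags do not check the loss of either protein.

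No guide group moved a proteasome gene past the test. In sgSmad2 0 of 42 members passed, where 0.0110% of 9082 genes did, in sgSmad3 0 of 42 (0.110% of all genes) and in sgSmad2/3 0 of 42 (0.595% of all genes). The departure of the double guide from the sum of the single guides passed for 0 members and 0% of all genes. With an unadjusted p under 0.05 there were 0, 4, 3 and 1 members in these tests, and 266, 1082, 1005 and 244 of all genes. Median log2 changes of the members were 0.09, 0.07 and 0.05 in sgSmad2, sgSmad3 and sgSmad2/3, against 0.02, 0.04 and 0.04 for all genes. The summed members stood at 6578 and 6161 in sgSmad2, 6345 and 6330 in sgSmad3, 6339 and 6250 in sgSmad2/3, and 6342 and 5608 in control libraries, so the sums overlapped. Both libraries lay above both controls for 7, 11 and 13 members in sgSmad2, sgSmad3 and sgSmad2/3 (14.0%, 22.7% and 25.1% of all genes) and below both for 1, 4 and 4 (10.8%, 17.2% and 18.2% of all genes). These comparisons share the control libraries. The median log2 change was 0.19, 0.16 and 0.17 without control replicate 1 and -0.02, -0.06 and -0.03 without control replicate 2, so its sign and size rest on which control is used.

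With 2 libraries a group the intervals are wider than in the cell-type experiment, and 27, 14 and 25 of the 42 lay within a 1.5-fold change in sgSmad2, sgSmad3 and sgSmad2/3. Libraries of a group also differed: the correlation over genes was 0.959 between the sgSmad2 libraries, while sgSmad2 replicate 1 and control replicate 1 correlated at 0.980. Myeloid markers (5 genes) summed to 0 and 4 in sgSmad2, 48 and 5 in sgSmad3, 16 and 62 in sgSmad2/3, and 2 and 0 in control libraries. Red cell markers (3 genes) summed to 25 and 24 in sgSmad2, 67 and 31 in sgSmad3, 64 and 117 in sgSmad2/3, and 17 and 13 in control libraries. In the myeloid list S100a8 and S100a9 held most of these tags and were above control by log2 2.66 and 2.64 in sgSmad3 and 3.20 and 3.63 in sgSmad2/3, and did not pass (limma adjusted p = 0.43 and 0.33 in sgSmad3, 0.38 and 0.13 in sgSmad2/3). Csf1r was at 2 or less and Itgam at 0 in all 8 libraries. The red cell gene Hba-a1 rose in sgSmad2/3 (log2 2.21, limma adjusted p = 0.00051). The part of these cells in the values below was not tested.

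The activators gave the largest values in sgSmad3 and sgSmad2/3. Psme2 was at 178 and 96 in sgSmad2, 64 and 96 in sgSmad3, 93 and 83 in sgSmad2/3 and 163 and 125 in control libraries. The sgSmad3 and sgSmad2/3 libraries lay below both controls, by log2 -0.86 (95% interval -1.42 to -0.29, limma adjusted p = 0.26) and -0.69 (interval -1.26 to -0.13, limma adjusted p = 0.35), while the sgSmad2 libraries lay above and below both controls (log2 -0.13). Summed with its copy Psme2b, it gave log2 -0.45 in sgSmad3 (limma adjusted p = 0.36) and -0.48 in sgSmad2/3 (limma adjusted p = 0.33). Its partner Psme1 was at 196 and 218 in sgSmad2, 207 and 221 in sgSmad3, 198 and 211 in sgSmad2/3 and 204 and 218 in control libraries, with log2 changes of -0.03, 0.02 and -0.04.

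Psme3 was at 85 and 101 in sgSmad2, 155 and 96 in sgSmad3, 114 and 108 in sgSmad2/3 and 79 and 76 in control libraries. All 6 guide libraries lay above both controls, by log2 0.25 in sgSmad2, 0.65 in sgSmad3 (interval 0.19 to 1.10, limma adjusted p = 0.29) and 0.51 in sgSmad2/3 (interval 0.06 to 0.97, limma adjusted p = 0.40), and the sgSmad3 value was 0.31 without sgSmad3 replicate 1 and 0.99 without sgSmad3 replicate 2. Psme4 was at 101 and 90, 71 and 100, 87 and 98 in sgSmad2, sgSmad3 and sgSmad2/3, and at 112 and 107 in control libraries. Its guide libraries lay below both controls, by log2 -0.20, -0.37 and -0.24, and did not pass. The guide groups share the same controls, so lying on one side of them in all 6 libraries is not repeated support. The share of all genes that do so was not counted.

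In the cap Psmd2, the scaffold subunit beside Psmd1, was at 214 and 274 in sgSmad2, 278 and 285 in sgSmad3, 282 and 262 in sgSmad2/3 and 199 and 202 in control libraries. It was above both of the shared controls in all 6 guide libraries, by log2 0.27, 0.49 (limma adjusted p = 0.29) and 0.44 (limma adjusted p = 0.34). How many of all genes do so was not counted, which holds for Psmd9 below too. Psmd3, a lid subunit, was at 271 and 268 in sgSmad2, 421 and 324 in sgSmad3, 333 and 342 in sgSmad2/3 and 244 and 285 in control libraries (log2 0.03, 0.48 and 0.35). The sgSmad2 libraries overlapped with the controls and the others did not. The chaperone Psmd9, also above both controls in all 6 guide libraries, was at 38 and 38 in sgSmad2, 47 and 30 in sgSmad3, 28 and 34 in sgSmad2/3 and 27 and 25 in control libraries. It had the lowest p of the departures from additivity (log2 -0.81, interval -1.56 to -0.05, unadjusted p = 0.038 in limma, adjusted p = 1.0).

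Psmb5 was at 16 and 20 in sgSmad2, 12 and 14 in sgSmad3, 18 and 21 in sgSmad2/3 and 17 and 13 in control libraries. Psmb6 was at 115 and 129, 151 and 118, 133 and 121 in sgSmad2, sgSmad3 and sgSmad2/3 and at 117 and 105 in control libraries. Psmb7 was at 136 and 108, 164 and 120, 113 and 109 in sgSmad2, sgSmad3 and sgSmad2/3 and at 135 and 106 in control libraries. Their log2 changes ran between -0.18 and 0.37 and none passed. Psmb3 had the largest value of the core in sgSmad2 and sgSmad2/3, at 171 and 248 in sgSmad2, 149 and 222 in sgSmad3, 214 and 199 in sgSmad2/3 and 160 and 144 in control libraries (log2 0.44 in sgSmad2, interval -0.01 to 0.89, limma adjusted p = 1.0, and log2 0.44 in sgSmad2/3, limma adjusted p = 0.47). Median log2 changes of the alpha ring were 0.09, -0.05 and 0.04. The core chaperones Psmg1 to Psmg4 gave values between -0.43 (Psmg2 in sgSmad3) and 0.40 (Psmg3 in sgSmad3), and none passed. Psmg1 was at 31 and 32 in sgSmad2, 32 and 34 in sgSmad3, 33 and 35 in sgSmad2/3 and 25 and 29 in control libraries. All its guide libraries lay above both controls, which the guide groups share, and the share of all genes that do so was not counted.

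Some members differed more between the libraries of one group than between groups. Spreads here are the higher over the lower value after 1 was added to each. Psmd6, a lid subunit, was at 50 and 113 in sgSmad3, a 2.24-fold spread. It was at 100 and 96 in sgSmad2, 129 and 104 in sgSmad2/3 and 112 and 89 in control libraries. Psmc5 was at 73 and 28 in sgSmad2, a 2.55-fold spread, and at 51 and 40 in control libraries. A spread of over 1.5-fold within a group occurred for 4 of 42 members in sgSmad2, 3 in sgSmad3, 0 in sgSmad2/3 and 3 in control libraries, against 18.9%, 15.7%, 9.90% and 13.9% of all genes.

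**Figure D5:**
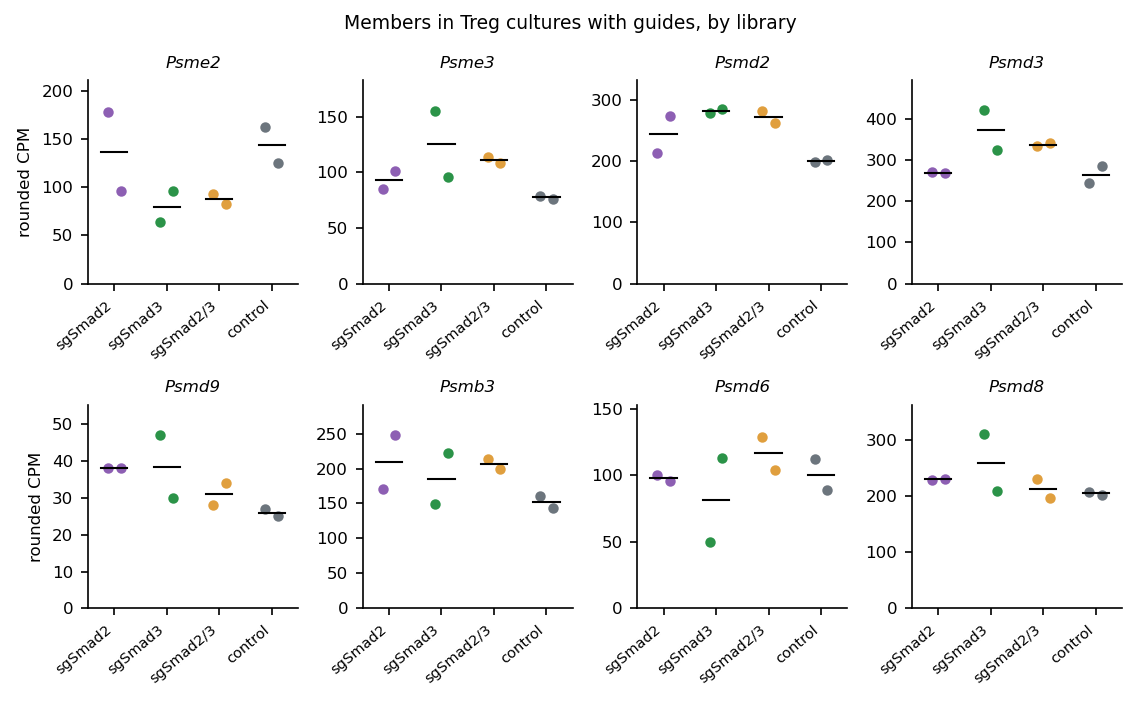
Rounded CPM by library for 8 members in Treg cultures with guides, with sgSmad2, sgSmad3, sgSmad2/3 and control libraries from left to right and the group mean as a bar. Psme3, Psmd2 and Psmd9 lie above both controls, which the guide groups share, in all 6 guide libraries. The share of all genes that do so was not counted. Psme2 lies below both controls in sgSmad3 and sgSmad2/3, and none of the 8 passed the test.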

How the data were processed

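Per the labels' protocols, total RNA of the 17 libraries was taken with TRIzol and made into 3' tag libraries (QuantSeq, FWD). Per the submitters' processing notes, mm10 was the build and the tools were Subread 2.0.1, STAR 2.7.9a, deepTools and Bowtie2, with no role or order, and the strand setting of the counting is not stated. Each experiment has 1 deposited table. Values of the cell-type table are CPM made by the authors: all columns sum to 1000000 and 100% of values are whole multiples of 1 read within 0.01. Values of the deposited Smad table are taken as a score, since the authors had rounded its CPM to integers. An unnamed last line, at most 7.7e-05% of a column, holds the worth of 1 read and was left out. Of the IDs, 54409 of 54532 and 55154 of 55421 had a name in the reference table. A count of 0 allows up to 3 reads, which is 3.76 CPM in the shallowest library, and such floors cover counting error only.

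Genes at 1 CPM or more in at least 3 cell-type libraries (14165), or at 10 or more in at least 2 Smad libraries (9082), were fitted with limma 3.58.1 in R 4.3.3 on log2(value + 1) with a trend on intensity and 1 model per table holding all its groups, with Benjamini-Hochberg adjustment over all genes tested, two-sided, at a threshold of 0.05. This scale understates fold changes at low CPM. The plan had a minimum of 1 in the Smad table. It was raised to 10 after the data were seen, because the method failed on simulated data at 1, and 0 members passed at either. The plan also took both tables for TPM. edgeR 4.0.16 and DESeq2 1.42.0 on the recovered reads, other pseudocounts, filters and scalings, a replicate block and each library left out were alternatives. The Acsbg1 and ATAC samples were not analysed here. Some single genes are not reported here. Named genes are the catalytic subunits, activators and core chaperones, the 10 members with the largest and the 5 with the smallest change from naive cells, and in the other contrasts those with the largest change or smallest p. The members, lists and rules were chosen with earlier results of these data known. Promoters and gene positions are RefSeq's, on GRCm38.p6.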

Additional observations from a re-analysis of the deposited data

How the results depend on the processing

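Across 18 alternatives for each cell-type comparison, 29 of the 35 members called in Treg against naive cells and 34 of the 37 called in Th0 against naive cells passed in each, and 0 changed sign. The counts were 32 with TMM scaling, 31 with quantile scaling, 33 with edgeR and 29 with DESeq2 in Treg, and 37, 35, 36 and 34 in Th0. Leaving out 1 library gave 31 to 35 in Treg and 35 to 37 in Th0. Quantile scaling moved the median of all genes to -0.05 in Treg and -0.03 in Th0, and the members' median relative to it was 0.80 and 0.81, against 0.78 and 0.87 in the main analysis. Between Treg and Th0 the count of 0 became 1 with edgeR (Psma7) and was 0 with the other alternatives, including each library left out. Over all genes that comparison called 770, and 453 without the intensity trend or 493 without Treg replicate 2.

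In the guide comparisons 0 members passed in any of the alternatives. The calls over all genes, 1, 10 and 54 in sgSmad2, sgSmad3 and sgSmad2/3, were 0, 0 and 0 with a minimum of 1 or with no minimum, 0, 1 and 17 without the trend, 0, 0 and 22 with only the groups compared, and 0 to 1, 0 to 20 and 4 to 13 with 1 library left out, where the lone library is assumed to vary like the other groups. Equal replicate numbers did not mark paired libraries in the cell-type table (correlations of deviations -0.0029 to 0.041), and no label ties them to a shared batch. In the Smad table, where 2 libraries a group give a single correlation for each pair of groups, it was 0.35 for control and sgSmad2 and 0.0041 to 0.059 for the other pairs. With the number as a replicate block, the member counts were 35, 37 and 0 in the cell-type table and 0 for the guides, and 2, 23 and 103 of all genes passed in sgSmad2, sgSmad3 and sgSmad2/3. Quantile scaling gave 2 in sgSmad2. Leaving out Gm42418, a locus that overlaps ribosomal RNA and took 7.11% to 8.78% of CPM in Treg, 6.59% to 7.88% in Th0 and 10.3% to 11.4% in naive libraries, was chosen after the data were seen and gave 35 and 37. Genes with few reads, such as Psmb5, have the widest intervals.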

Other observations

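Genes of other large protein complexes were also higher in culture. Over all genes tested, 23.3% rose in Treg and 24.3% in Th0 against naive cells, and 5.44% passed between Treg and Th0. Of the 8 genes of the CCT chaperonin, a cytosolic folding complex, 8 rose in Treg and 8 in Th0 against naive cells, with medians of 0.94 and 1.07, and 0 passed between Treg and Th0. Cct6a was at 238, 231 and 245 CPM in Treg, 255, 227 and 261 CPM in Th0 and 96.5, 110 and 102 CPM in naive libraries (log2 1.20 and 1.26). Of 9 genes of the COP9 signalosome, whose subunits are related to those of the proteasome lid, 6 rose in each culture, with Cops5, its catalytic subunit, at log2 1.09 and 1.37, and Gps1, Cops7b and Cops8 passed in neither. How these lists differ from the proteasome genes was not tested.

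Of 12 genes that bring ubiquitin-tagged proteins to the proteasome, 6 rose and 1 fell in Treg, and 5 rose and 1 fell in Th0 against naive cells. Of all genes, 23.3% rose and 16.5% fell in Treg, and 24.3% rose and 17.6% fell in Th0. Vcp, the p97 ATPase that pulls proteins out of complexes, rose by log2 0.58 in Treg and 0.75 in Th0, and the shuttle Rad23b by 0.52 and 0.69. The shuttle Ubqln2 fell to 20.5, 29.6 and 20.6 CPM in Treg and 20.1, 25.5 and 22.0 CPM in Th0, against 62.7, 54.5 and 45.6 CPM in naive libraries (log2 -1.18 and -1.22, limma adjusted p = 0.00028 and 0.00018). Its relatives Ubqln1 and Ubqln4 had log2 values of 0.38 and 0.21 in Treg, of which Ubqln1 passed. Psma8, the testis form of an alpha subunit, was listed at 1 in sgSmad3 replicate 2 and at 0 in the other 16 libraries.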
